A study of Mus musculus with 10 samples.

Results

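The 10 genes described here, Gata1, Zfpm1, Klf1, Tal1, Nfe2, Gfi1b, Lmo2, E2f2, Bcl11a and Ldb1, encode transcription regulators of red blood cell development. They were picked by name for that role, with earlier results of these libraries known, and they are 10 of the 55414 genes in the count table and 10 of the 14669 genes with enough reads to be tested. RNA sequencing was done on polyA RNA from splenic macrophages that had been pulled out of mouse spleen with magnetic beads against F4/80, a surface protein of mature macrophages. Of the 10 libraries, 5 were labelled Fpr2KO, from Fpr2-/- mice, and 5 were WT, from C57BL/6N mice. Fpr2 encodes formyl peptide receptor 2, a chemoattractant receptor of myeloid cells. The labels give no treatment, time point, age or sex, no strain background for the knockout and no statement of which part of Fpr2 was removed. They also do not say whether the 5 libraries of a genotype came from separate animals, so p-values measure the spread between these libraries, which may be technical.

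Red cell precursors mature from dividing erythroblasts into enucleated cells under the control of a small set of DNA-binding proteins. GATA1 is the central factor, and it acts with the cofactor FOG1, the product of Zfpm1, which binds its N-terminal zinc finger and brings in the NuRD corepressor. TAL1, the bridging proteins LMO2 and LDB1, and an E protein form a complex with GATA1 on erythroid genes, while KLF1 binds CACCC elements of globin, haem and membrane genes. In adult mice the spleen is a site of red cell production, and macrophages there carry attached erythroblasts and take up aged red cells, so an F4/80 isolate can hold RNA of red cell precursors.

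The promoters of the 4 genes with the largest log2 fold changes, Klf1, Tal1, Gata1 and Zfpm1, are shown because KLF1, TAL1 and GATA1 are themselves the proteins that bind such windows. Each window runs from 250 bases before to 50 bases after a transcription start, 5′ to 3′ on the gene's own strand, and comes from RefSeq on GRCm38.p6. Capitals mark matches to a GATA hexamer or to the KLF motif CCNCNCCC, on either strand. This motif is not the same as CACCC, and none of the 4 marked Zfpm1 matches contains CACCC on either strand. CACCC letters outside a whole CCNCNCCC match are left unmarked, and both the Klf1 and the Zfpm1 window hold such letters. The GATA hexamers searched were AGATAA with its variant AGATAG, and TGATAA with its variant TGATAG. The Klf1 window lies at chr8:84901732-84902031 (+), that of Tal1 at chr4:115056176-115056475 (+), that of Gata1 at chrX:7967861-7968160 (-) and that of Zfpm1 at chr8:122281891-122282190 (+).
Klf1: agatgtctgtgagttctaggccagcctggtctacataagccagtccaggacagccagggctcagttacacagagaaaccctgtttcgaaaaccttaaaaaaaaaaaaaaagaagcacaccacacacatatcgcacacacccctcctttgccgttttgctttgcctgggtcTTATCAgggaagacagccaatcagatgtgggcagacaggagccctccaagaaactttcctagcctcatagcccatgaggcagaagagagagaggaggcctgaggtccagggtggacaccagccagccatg
Tal1: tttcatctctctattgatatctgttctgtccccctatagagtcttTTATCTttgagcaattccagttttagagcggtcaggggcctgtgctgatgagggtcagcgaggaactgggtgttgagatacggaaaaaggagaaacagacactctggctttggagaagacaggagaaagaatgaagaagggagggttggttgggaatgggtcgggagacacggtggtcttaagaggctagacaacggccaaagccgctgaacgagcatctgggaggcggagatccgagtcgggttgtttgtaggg
Gata1: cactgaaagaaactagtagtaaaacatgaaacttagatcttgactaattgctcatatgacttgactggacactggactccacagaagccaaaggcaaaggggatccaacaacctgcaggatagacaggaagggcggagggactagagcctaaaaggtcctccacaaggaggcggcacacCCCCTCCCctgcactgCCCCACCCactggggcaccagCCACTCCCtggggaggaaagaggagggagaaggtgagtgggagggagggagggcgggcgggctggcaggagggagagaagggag
Zfpm1: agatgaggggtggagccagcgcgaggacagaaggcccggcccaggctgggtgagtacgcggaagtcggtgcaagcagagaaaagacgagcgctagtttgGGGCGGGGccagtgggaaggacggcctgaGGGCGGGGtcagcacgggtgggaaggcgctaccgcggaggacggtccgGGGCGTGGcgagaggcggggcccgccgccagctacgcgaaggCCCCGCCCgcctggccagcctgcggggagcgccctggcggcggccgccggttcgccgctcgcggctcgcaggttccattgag
The Klf1 window held 1 GATA hexamer, 80 bases before the start, and the E-box CAGATG 59 bases before it. This Tal1 window held 1 GATA hexamer 205 bases before the start, and a second Tal1 window held none. The Gata1 and Zfpm1 windows held no GATA hexamer but 3 and 4 matches to CCNCNCCC. In the table, 8 of the 10 regulators had a window, 12 windows in all, and Nfe2 and Lmo2 had none. GATA hexamers stood in 4 of these 12 windows (Gfi1b, Klf1, Ldb1 and Tal1) and in 29.8% of the 32851 windows of all genes, CCNCNCCC in 10 of 12 and in 49.5% of all, and CAGATG in 3 of 12 and in 17.2% of all. A match describes the letters and is not a binding site.

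The libraries held between 15865820 and 19060188 counts in Fpr2KO and between 15935444 and 18655950 in WT. Fpr2 had 0 reads in all 5 Fpr2KO libraries, against 325, 401, 574, 337 and 346 reads in WT replicates 1 to 5. Adgre1, which encodes F4/80, averaged 525 ± 63.4 CPM (counts relative to the TMM-scaled library size) in Fpr2KO and 524 ± 60.1 CPM in WT (SD, n = 5 each). Globin transcripts made up 0.436% to 0.968% of counts in Fpr2KO and 0.147% to 0.623% in WT, with the groups overlapping. Mitochondrial transcripts made up 3.99%, 6.04%, 3.85%, 3.57% and 3.22% in Fpr2KO replicates 1 to 5, against 6.09%, 5.74%, 5.6%, 4.83% and 5.28% in WT replicates 1 to 5. All Fpr2KO libraries but replicate 2 lay below every WT library, and the part of this share in the results was not tested. Ddx3y, a gene of the Y chromosome, averaged 150 ± 32.1 CPM in Fpr2KO and 154 ± 18 CPM in WT, and Xist had 6 reads over all Fpr2KO libraries and 6 over all WT libraries.

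All 10 regulators had a higher estimate in Fpr2KO, and none passed an FDR of 0.05 in the quasi-likelihood test of edgeR with Benjamini-Hochberg adjustment over all 14669 genes. Of all 14669 genes tested, 7799 had a higher estimate in Fpr2KO and 0.0682% passed that threshold. At an unadjusted p under 0.05, 7 of the 10 were higher (Gata1, Zfpm1, Klf1, Tal1, Lmo2, E2f2 and Ldb1), against 4.88% of all genes, a count that is no independent evidence because results were known when the genes were picked. In Gata1 and Zfpm1 every Fpr2KO library lay above every WT library, against 0.825% of all genes. The median log2 fold change, always Fpr2KO over WT, was 0.44 for the 10 regulators and 0.01 for all genes tested. In sequencing of bulk samples, more cells of a type and more RNA per cell cannot be told apart. Other tools gave different counts of regulators past their thresholds: DESeq2 called 3 of the 10 (Gata1, Zfpm1 and E2f2) at a background of 1.09%, and limma voom called 0. Without Fpr2KO replicate 2, the library whose mitochondrial share lay among those of WT, 2 regulators passed in edgeR (Zfpm1 and E2f2), at a background of 0.174% of all genes. Zfpm1 alone passed without WT replicate 1 (background 0.0736%), without WT replicate 4 (0.175%) and without WT replicate 5 (0.342%). The number of genes called in all, 10 with every library, was 26 without Fpr2KO replicate 2 or without WT replicate 4, and 51 without WT replicate 5.

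**Figure D1:**
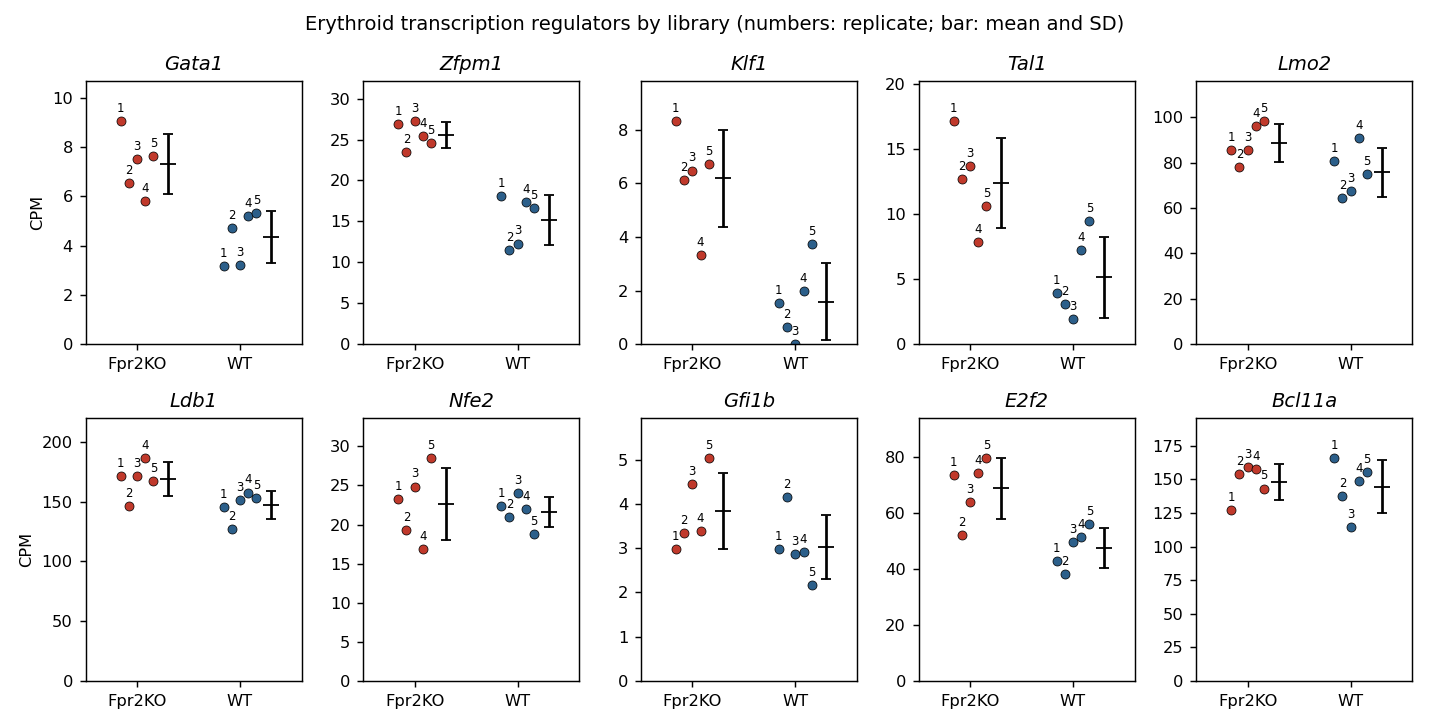
Level of each of the 10 regulators in every library, in CPM on linear axes that start at 0, with Fpr2KO at the left of each panel and WT at the right. Points are libraries numbered by replicate, and the bar beside each group gives its mean and SD (n = 5). Fpr2KO and WT points do not overlap for Gata1 and Zfpm1, and they overlap for the other 8.

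Gata1 (ENSMUSG00000031162) lies at X:7959260-7978071 on the minus strand in GENCODE M21 on GRCm38. It was measured at 9.04, 6.55, 7.5, 5.79 and 7.61 CPM in Fpr2KO replicates 1 to 5, against 3.18, 4.7, 3.22, 5.2 and 5.34 CPM in WT replicates 1 to 5. The lowest Fpr2KO library, replicate 4, lay just above the highest WT library, replicate 5, and the groups did not overlap. The means were 7.3 ± 1.22 CPM in Fpr2KO and 4.33 ± 1.05 CPM in WT (SD, n = 5 each). The log2 fold change was 0.75 (SE 0.18, 95% interval 0.36 to 1.14) with an edgeR FDR of 0.184. DESeq2 gave an adjusted p of 0.0215.

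Zfpm1 (ENSMUSG00000049577, 8:122282141-122337251, plus strand) encodes FOG1 and had the smallest p of the 10. Its levels were 26.9, 23.5, 27.2, 25.5 and 24.6 CPM in Fpr2KO replicates 1 to 5, against 18.1, 11.5, 12.3, 17.4 and 16.7 CPM in WT replicates 1 to 5. The Fpr2KO libraries lay close together, with a coefficient of variation of 6.23%, while the WT libraries split into replicates 2 and 3 below and replicates 1, 4 and 5 above, with a coefficient of variation of 20.3%. No WT library reached the lowest Fpr2KO library. The means were 25.5 ± 1.59 CPM in Fpr2KO and 15.2 ± 3.08 CPM in WT (SD, n = 5 each), a log2 fold change of 0.75 (SE 0.13, 95% interval 0.47 to 1.03). The unadjusted p was 4.24e-05 and the edgeR FDR 0.0565, which misses the threshold. Over the fits that each left out 1 library the FDR ran between 0.0363 and 0.241 and the log2 fold change between 0.66 and 0.81. The predicted gene Gm20388 spans the locus on the same strand and shares 0 exon bases with Zfpm1.

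Gata1 and its cofactor had equal estimates, and the ratio of Zfpm1 to Gata1 counts, in which library scaling cancels, was compared directly. Zfpm1 counts were 2.98, 3.58, 3.63, 4.4 and 3.23 times those of Gata1 in Fpr2KO replicates 1 to 5, against 5.68, 2.44, 3.82, 3.35 and 3.13 times in WT replicates 1 to 5. WT replicates 1 and 2 held the highest and the lowest ratio of all libraries, and every Fpr2KO ratio lay between them. The mean log2 ratio was 1.82 ± 0.21 in Fpr2KO and 1.82 ± 0.45 in WT (SD, n = 5 each), and the difference of 0.00 had a two-sided exact permutation p of 1. Leaving out each library in turn gave differences between -0.14 and 0.17. Between libraries of 1 genotype, Zfpm1 and Gata1 followed each other little, with a Pearson r of 0.18 over the 10 libraries after group means were subtracted, given as a description.

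Klf1 (ENSMUSG00000054191, 8:84901928-84905291, plus strand) encodes the CACCC-binding factor of late red cell development and had the largest fold change of the 10. It had 128, 101, 109, 61 and 136 reads in Fpr2KO replicates 1 to 5, against 24, 12, 0, 35 and 66 reads in WT replicates 1 to 5. As levels these were 8.33, 6.12, 6.48, 3.33 and 6.72 CPM in Fpr2KO, against 1.53, 0.648, 0, 2 and 3.75 CPM in WT. Only Fpr2KO replicate 4 lay within the WT range, below WT replicate 5, so the groups overlapped. A count of 0 in WT replicate 3 allows up to 3 counts, or 0.176 CPM, and covers counting error only. The means were 6.2 ± 1.81 CPM in Fpr2KO and 1.58 ± 1.44 CPM in WT (SD, n = 5 each), so that the SD in WT was nearly as large as its mean. The log2 fold change was 1.96 (SE 0.64, 95% interval 0.52 to 3.4) with an edgeR FDR of 0.388. It was 1.64 without WT replicate 3 and 2.56 without WT replicate 5, and limma voom gave 2.98.

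Tal1 (ENSMUSG00000028717, 4:115056426-115071755, plus strand) encodes the E-box-binding subunit of the GATA1 complex. It was measured at 17.1, 12.7, 13.7, 7.82 and 10.6 CPM in Fpr2KO replicates 1 to 5, against 3.95, 3.08, 1.93, 7.25 and 9.42 CPM in WT replicates 1 to 5. The order of libraries resembled that of Klf1: Fpr2KO replicate 1 was highest, WT replicate 3 lowest, and Fpr2KO replicate 4 lay between WT replicates 4 and 5. The means were 12.4 ± 3.47 CPM in Fpr2KO and 5.13 ± 3.11 CPM in WT (SD, n = 5 each), with a log2 fold change of 1.27 (SE 0.39, 95% interval 0.40 to 2.13) and an edgeR FDR of 0.342.

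The bridging subunits of the complex were far more abundant and differed less. Lmo2 (ENSMUSG00000032698, 2:103957986-103981878, plus strand) encodes the LIM-only protein that links TAL1 to GATA1. It was measured at 85.4, 78.3, 85.4, 96.2 and 98.3 CPM in Fpr2KO, against 80.6, 64.3, 67.6, 91.1 and 75.1 CPM in WT, in the order of replicates 1 to 5. The groups overlapped, with WT replicate 4 above 3 of the Fpr2KO libraries, and the log2 fold change was 0.23 (SE 0.10, edgeR FDR 0.485). Ldb1 (ENSMUSG00000025223, 19:46031570-46045214, minus strand) encodes the LIM-domain binding protein that joins distant elements to promoters. Its levels were 171.3, 146.8, 171.9, 186.7 and 167.7 CPM in Fpr2KO, against 145.2, 127.4, 151.5, 157.7 and 152.7 CPM in WT. All Fpr2KO libraries but replicate 2 lay above every WT library, and the log2 fold change was 0.20 (SE 0.08, edgeR FDR 0.461). Pprc1 on the opposite strand shares 177 exon bases with Ldb1, and no source used here gives the strand setting of the counting, so reads of that stretch cannot be assigned to 1 gene.

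Nfe2 and Gfi1b encode factors that red cell precursors share with megakaryocytes. Nfe2 (ENSMUSG00000058794, 15:103248212-103258403, minus strand) encodes p45, which pairs with small Maf proteins, and it was measured at 23.3, 19.3, 24.9, 16.8 and 28.5 CPM in Fpr2KO, against 22.4, 21, 24, 21.9 and 18.8 CPM in WT. Its Fpr2KO libraries spread above and below the WT libraries, replicate 5 being the highest of all 10 and replicate 4 the lowest. The log2 fold change was 0.06 (SE 0.13, 95% interval -0.22 to 0.34, edgeR FDR 0.898), and -0.04 without Fpr2KO replicate 5. Gfi1b (ENSMUSG00000026815, 2:28609450-28621982, minus strand) encodes a repressor that works through the CoREST complex. It had the lowest CPM of the 10 in Fpr2KO, at 2.99, 3.33, 4.46, 3.39 and 5.04 CPM there, against 2.99, 4.16, 2.87, 2.91 and 2.16 CPM in WT. WT replicate 2 lay above 3 Fpr2KO libraries, and the log2 fold change was 0.35 (SE 0.21, 95% interval -0.09 to 0.79, edgeR FDR 0.605). The 14 tested megakaryocyte and platelet markers lay the other way, with 13 lower in Fpr2KO, a median log2 fold change of -0.54 and summed levels of 134 to 225 CPM in Fpr2KO and 225 to 296 CPM in WT. Thbs1 (mean 58.2 CPM in Fpr2KO and 116 CPM in WT) held the largest part of these sums. It was the only marker of that list whose groups did not overlap. The 10 basophil and mast cell markers, cells in which Gata1 and Gfi1b are also known to be active, were all lower, with summed levels of 116 to 148 CPM in Fpr2KO and 158 to 220 CPM in WT. Kit (mean 92 CPM in Fpr2KO and 104 CPM in WT) and Hdc (30.9 and 58.4 CPM) made up most of these sums. Of the 10 markers, 2 had an unadjusted p under 0.05, against 4.92% of all genes lower at that p. The groups overlapped for every single marker. The part of megakaryocytes, platelets, basophils and mast cells in the results was not tested.

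E2f2 and Bcl11a are regulators of the cell cycle and of globin choice that other blood cells use as well. E2f2 (ENSMUSG00000018983, 4:136172394-136196057, plus strand) encodes an E2F factor that acts in the last divisions of erythroblasts. It was measured at 73.5, 52.1, 64, 74 and 79.5 CPM in Fpr2KO, against 42.8, 38, 49.5, 51.2 and 56 CPM in WT. Fpr2KO replicate 2 lay below WT replicate 5, and the other 4 Fpr2KO libraries lay above all of WT. The means were 68.6 ± 10.8 CPM in Fpr2KO and 47.5 ± 7.14 CPM in WT (SD, n = 5 each), with a log2 fold change of 0.53 (SE 0.12, 95% interval 0.27 to 0.80) and an edgeR FDR of 0.165, or 0.0429 without Fpr2KO replicate 2. All 28 cell cycle genes listed beside it also had higher estimates. Of these, 21 were at an unadjusted p under 0.05, against 4.88% of all genes higher at that p. Their median log2 fold change was 0.44, with summed levels of 1170 to 1470 CPM in Fpr2KO and 830 to 1280 CPM in WT. The part of dividing cells in the E2f2 result was not tested.

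Bcl11a (ENSMUSG00000000861, 11:24078056-24174123, plus strand) encodes the repressor of embryonic and fetal globin genes, and it is also a factor of B cells and plasmacytoid dendritic cells. Its levels were 127.1, 154, 159.5, 157.5 and 143.2 CPM in Fpr2KO, against 166, 137.3, 114.4, 148.9 and 155.6 CPM in WT. The highest and the lowest library were both WT, and no Fpr2KO library lay above all of WT. The log2 fold change was 0.04 (SE 0.10, 95% interval -0.18 to 0.26, edgeR FDR 0.926), and -0.04 without WT replicate 3. An antisense gene, 4930538E20Rik, shares 316 exon bases with it. The 12 B cell markers summed to 3740 to 5020 CPM in Fpr2KO and 2890 to 4390 CPM in WT. All 12 estimates were higher, 3 of them at an unadjusted p under 0.05, against 4.88% of all genes. The 10 plasmacytoid dendritic cell markers summed to 800 to 996 CPM in Fpr2KO and 748 to 910 CPM in WT, with 7 higher and 3 lower.

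**Figure D2:**
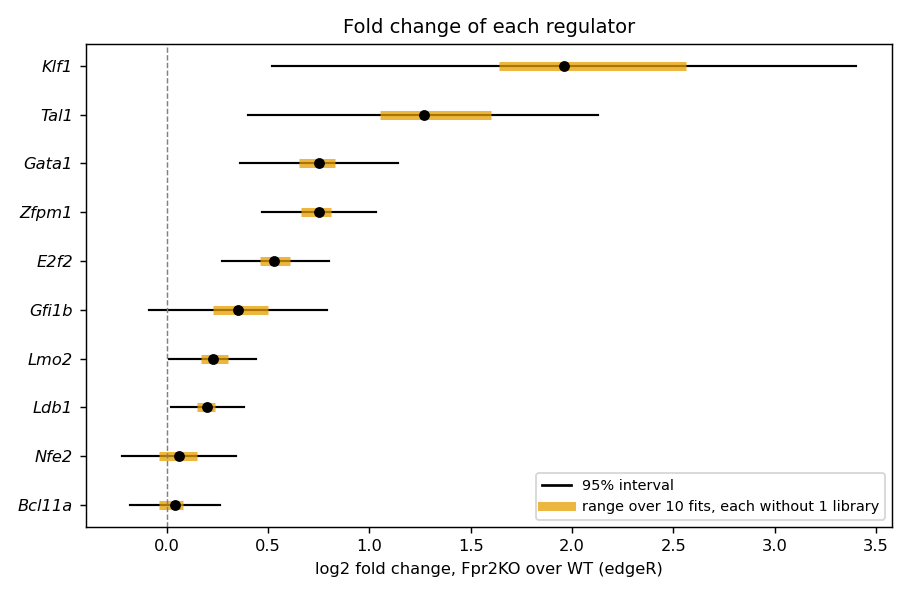
Log2 fold change, Fpr2KO over WT, of each regulator in the edgeR fit (points) with its 95% interval (black line) and the range over 10 fits that each left out 1 library (orange band). Klf1 at 1.96 and Tal1 at 1.27 have the largest estimates with wide intervals, Zfpm1 and Gata1 at 0.75 narrower ones, and the intervals of Nfe2, Gfi1b and Bcl11a include 0.

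Per kilobase of exon, which allows levels of different genes to be set side by side, Lmo2 and Ldb1 led in both genotypes, at 41 and 36.7 CPM per kb in Fpr2KO and at 35 and 31.9 CPM per kb in WT. In Fpr2KO they were followed by E2f2 at 14.1, Bcl11a at 11.3, Nfe2 at 7.55, Zfpm1 at 7.29, Klf1 at 4.05, Gata1 at 2.99, Tal1 at 2.83 and Gfi1b at 2.1 CPM per kb. In WT the order after Ldb1 was Bcl11a at 11, E2f2 at 9.73, Nfe2 at 7.23, Zfpm1 at 4.34, Gata1 at 1.77, Gfi1b at 1.65, Tal1 at 1.17 and Klf1 at 1.04 CPM per kb. Neighbours in these orders overlapped between libraries except for Ldb1 above E2f2, Bcl11a above Nfe2 and Zfpm1 above Klf1 in Fpr2KO, and for Ldb1 above Bcl11a, Nfe2 above Zfpm1 and Zfpm1 above Gata1 in WT. Klf1 stood 7th of the 10 in Fpr2KO and 10th in WT.

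The genes that these factors are known to switch on in red cell precursors had a larger median difference than the factors. All 34 erythroid effector genes measured (globins, haem synthesis enzymes and red cell membrane proteins) had higher estimates in Fpr2KO, with a median log2 fold change of 1.24. Of these, 33 were at an unadjusted p under 0.05, against 4.88% of all genes, and none passed the FDR. This list had been seen to move in these libraries before it was set beside the regulators, and it is no independent evidence of their direction. Its smallest p-values belonged to Tspan33, a tetraspanin of erythroblasts, and to the haem synthesis genes Alad, Urod and Cpox. Tspan33 averaged 40.9 ± 5.44 CPM in Fpr2KO and 27.7 ± 2.68 CPM in WT (log2 fold change 0.56, edgeR FDR 0.0845). The log2 fold changes were 0.72 for Alad and 0.55 for Urod (edgeR FDR 0.112 each), and 0.54 for Cpox (edgeR FDR 0.164). In WT replicates 1, 3 and 4 Tspan33 held 26.3, 24.9 and 26.2 CPM, while the membrane gene Slc4a1 held 43, 4.45 and 80.2 CPM. Without the globins, the other 30 effector genes summed to 2570, 2020, 1890, 1350 and 1820 CPM in Fpr2KO replicates 1 to 5, against 920, 832, 515, 1300 and 1310 CPM in WT replicates 1 to 5. Fpr2KO replicate 4 was the lowest of its group, close to WT replicates 4 and 5, and WT replicate 3 was the lowest of all. The share of red cell precursors in each library was not measured, and its part in the levels of the regulators was not tested.

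Whether a regulator differed as much as these effector genes, or as much as Gata1, was tested as a ratio within each library. Of 19 ratios, none passed an adjusted p of 0.05, and the smallest p that 5 against 5 libraries can give is 0.00794. Relative to the 30 effector genes, Gata1 and Zfpm1 each differed by -0.26 on the log2 scale between Fpr2KO and WT (exact permutation p = 0.23 for Gata1 and 0.286 for Zfpm1, adjusted 0.273 and 0.302), so that their smaller fold change was not told apart from that of the effector genes. Nfe2 and Bcl11a each differed by -0.99 (exact p = 0.0159, adjusted 0.0504), Ldb1 by -0.83 and Lmo2 by -0.80 (both exact p = 0.0238, adjusted 0.0565). With the globins kept among the effector genes these were -0.79 for Ldb1 and -0.75 for Lmo2, both at an unadjusted exact p of 0.0873. Tal1 differed by 0.41 (exact p = 0.0794, adjusted 0.126). Klf1 differed by 1.96 relative to the effector genes and by 2.22 relative to Gata1 (both exact p = 0.0159, adjusted 0.0504), values that rest on the 0.5 counts added to the 0 of WT replicate 3. Without that library, an alternative added after its value was seen, they were 1.01 and 1.15. The effector sum gives most weight to abundant genes, and the log2 fold changes of the 34 single effector genes ran between 0.29 and 2.06. The log2 fold change of Klf1 itself, 1.96, lay within that range. Bcl11a relative to Gata1 was at a log2 ratio of 4.35 ± 0.36 in Fpr2KO and 5.08 ± 0.37 in WT (SD, n = 5 each), a difference of -0.73 with the smallest possible exact p of 0.00794, adjusted 0.0504.

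Between libraries of the same genotype, Klf1 and Tal1 followed the effector genes closely. Group means were subtracted from log2 CPM, and each regulator was set against the mean level of 4 lists (effector genes, cell cycle genes, B cell markers, and megakaryocyte and platelet markers) over the 10 libraries, 40 relations in all, with exact permutation within groups. Tal1 had a Pearson r of 0.96 with the effector genes (exact p = 0.000139, adjusted 0.00556) and a Spearman rho of 0.95 (exact p = 0.000347, adjusted 0.0139). Klf1 had an r of 0.97 (exact p = 0.000417, adjusted 0.00834) and a rho of 0.94 (exact p = 0.0016, adjusted 0.032). Without WT replicates 3 and 5, the libraries farthest from the median of the effector level, r was 0.96 for Tal1 and 0.91 for Klf1. No other relation of the 40 passed the adjustment. With the effector genes, r was 0.74 for Gata1 (adjusted exact p = 0.225), 0.69 for Zfpm1 (adjusted 0.413), 0.52 for Bcl11a (and -0.2 without those libraries), 0.41 for Lmo2, 0.18 for E2f2, 0.07 for Ldb1, -0.12 for Nfe2 and -0.33 for Gfi1b. With cell cycle genes, r was 0.85 for Tal1 (exact p = 0.0116, adjusted 0.125), 0.78 for Klf1 (adjusted 0.228), -0.66 for Gfi1b (adjusted 0.228), -0.59 for Nfe2 (adjusted 0.125) and 0.18 for E2f2. With B cell markers, r was 0.84 for Zfpm1 (adjusted exact p = 0.209), or 0.62 without WT replicates 2 and 3, and 0.75 for Bcl11a (adjusted 0.199). With megakaryocyte and platelet markers, r lay between -0.45 for Ldb1 and 0.33 for Nfe2.

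**Figure D3:**
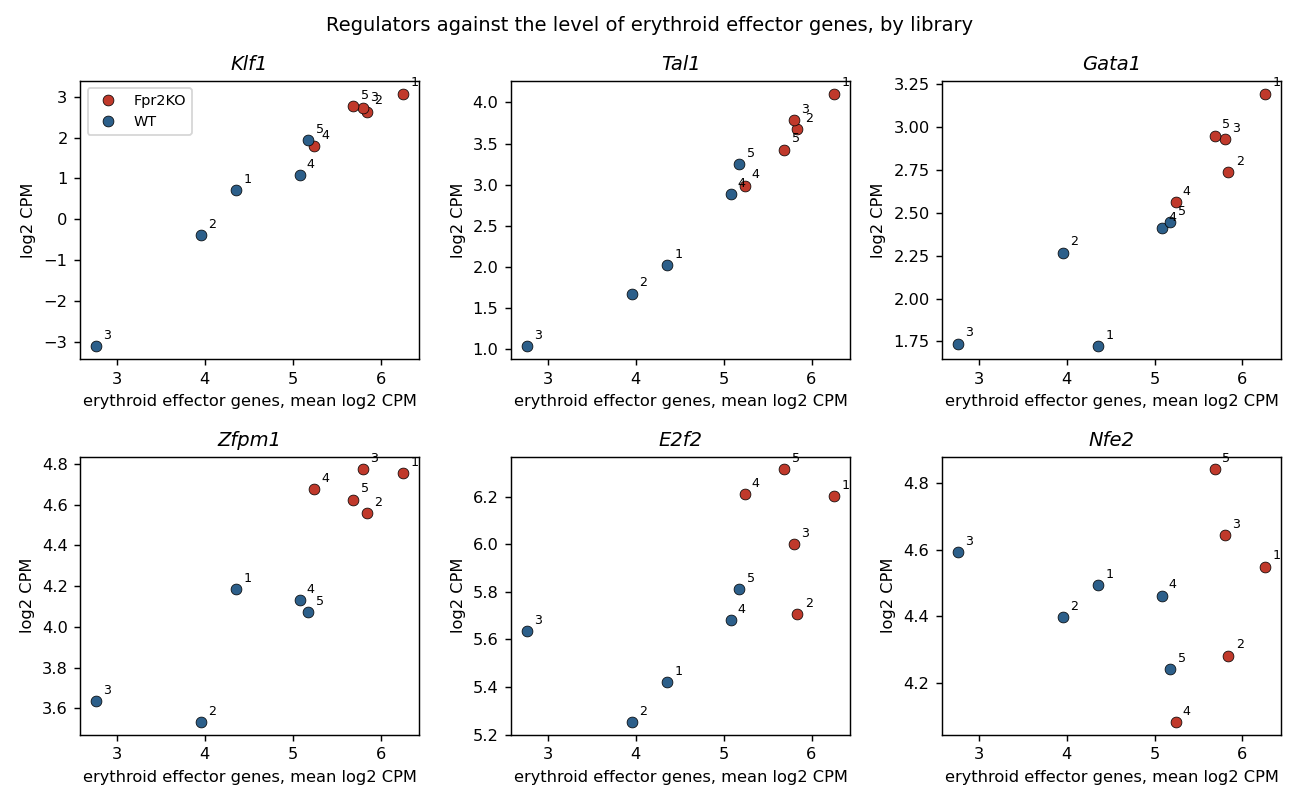
Log2 CPM of 6 regulators (vertical axes) against the mean log2 CPM of the erythroid effector genes (horizontal axes), with 1 numbered point per library, red for Fpr2KO and blue for WT. Klf1 and Tal1 are mostly higher where the effector level is higher, in both genotypes, from WT replicate 3 up to Fpr2KO replicate 1. The Klf1 point of WT replicate 3 stands for 0 reads, and its place is set by the prior count of 2. In the Gata1 and Zfpm1 panels all Fpr2KO points lie above all WT points, and in those of E2f2 and Nfe2 the groups overlap.

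The genes most like each regulator between libraries of 1 genotype were found among 14659 other tested genes, by Pearson r over the 10 libraries after group means were subtracted, with no test. For Klf1 they were Hemgn, Kel and Slc4a1, genes of red cell nuclei and membranes, at an r of 0.99 each. WT replicate 3, which had no Klf1 read, held 7 reads of Hemgn, 3 of Kel and 76 of Slc4a1, the anion exchanger band 3. For Tal1 they were Sowaha at 0.98, Ermap at 0.98 and Sox6 at 0.97, and for Gata1 Cdca8 at 0.94, Grb7 at 0.93 and Mgst3 at 0.91. Of these 9 genes, Hemgn, Kel, Slc4a1 and Ermap were on the effector list. For the other regulators they were Pglyrp2, Ttbk1 and Med12l (0.94 to 0.96) for Zfpm1, Cnot3, Hk1 and Fiz1 (0.96 to 0.97) for E2f2, Dtl, Sept6 and Fchsd2 (0.95 to 0.96) for Bcl11a, and Sept1, B3gnt2 and Srp54a (0.98 each) for Ldb1. For Lmo2 they were Hnrnpr, Pip4k2b and Glyctk (0.93 to 0.95), for Nfe2 Tnfrsf14, Il10ra and Pyroxd2 (0.9 to 0.92), and for Gfi1b Slc7a8, Ackr1 and Ctnnd2 (0.93 to 0.95). Among the regulators themselves, Klf1 and Tal1 were the most alike pair at 0.9, followed by E2f2 and Ldb1 at 0.82 and Gata1 and Tal1 at 0.77. These values are the extremes of many comparisons over few libraries.

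The partners of the complex were divided in direction. Of 14 tested partners, 6 were higher and 8 lower in Fpr2KO, with a median log2 fold change of -0.01. At an unadjusted p under 0.05, 2 were higher, against 4.88% of all genes higher at that p. These were Tcf3, which encodes the E proteins that pair with TAL1, at 134 ± 18.7 CPM in Fpr2KO (log2 fold change 0.28, edgeR FDR 0.417), and Ssbp3, an LDB1-stabilising protein (0.25, FDR 0.509). Lyl1, a TAL1 relative, had a log2 fold change of 0.25 and Cbfa2t2 one of -0.17. Gata2, the GATA factor of earlier progenitors, was chosen here after its values were seen. It was measured at 6.83, 5.27, 7.14, 11.5 and 10.5 CPM in Fpr2KO, against 5.6, 11.6, 9.54, 8.85 and 9.42 CPM in WT. Its groups overlapped fully and its log2 fold change was -0.12 (SE 0.22). Zfpm2, the FOG1 paralogue, had too few reads to test. Of 19 corepressor subunits of NuRD and CoREST with DNMT1, 11 were higher and 8 lower with a median of 0.04. Hdac1 alone had an unadjusted p under 0.05 (0.16, edgeR FDR 0.503), which is near the share of 4.88% of all genes.

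**Figure D4:**
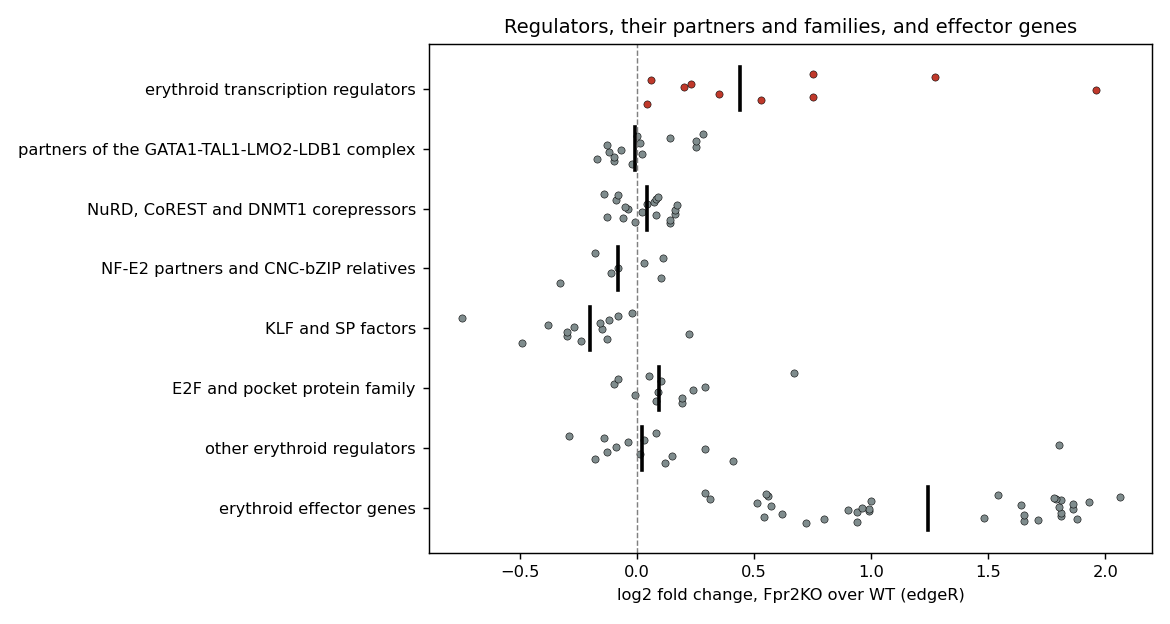
Log2 fold changes, Fpr2KO over WT, of the 10 regulators (red, top row) and of 7 lists of their partners, families and known effector genes (grey), 1 point per tested gene, with black bars at the list medians. The regulators (median 0.44) and effector genes (median 1.24) lie right of 0, and the KLF and SP factors other than Klf1 lie mostly left of it (median -0.20).

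Relatives of individual regulators were mixed. Of 14 KLF and SP factors other than Klf1, 13 had lower estimates in Fpr2KO and 1 a higher one, 6 of the 13 at an unadjusted p under 0.05, against 4.92% of all genes lower at that p, with a median log2 fold change of -0.20. Klf9, a glucocorticoid-responsive repressor, was measured at 12, 10.6, 11.1, 7.93 and 10 CPM in Fpr2KO, against 18.5, 17, 18, 12.4 and 20.9 CPM in WT, with every Fpr2KO library below every WT library (log2 fold change -0.75, SE 0.14, edgeR FDR 0.111). Klf6 (-0.38), Klf11 (-0.24) and Klf13 (-0.30) also had an unadjusted p under 0.05. Among 7 tested partners and relatives of NF-E2, 3 were higher and 4 lower, and Bach1, a haem-sensing repressor at the same DNA elements, had the smallest p (-0.33, SE 0.10, edgeR FDR 0.265). Of 12 E2F and pocket protein genes, 9 were higher and 3 lower with a median of 0.10. The E2F partner Tfdp2 had the smallest p among these, at 45.8 ± 9.93 CPM in Fpr2KO and 28.7 ± 6.58 CPM in WT (SD, n = 5 each, log2 fold change 0.67, edgeR FDR 0.248).

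Of 14 tested genes of other erythroid regulators, 8 were higher and 6 lower with a median log2 fold change of 0.02. Sox6, a partner of BCL11A in globin silencing, was measured at 10.3, 9.34, 8.63, 4.15 and 7.22 CPM in Fpr2KO, against 1.78, 0.972, 0.293, 3.25 and 5 CPM in WT. As for Klf1 and Tal1, Fpr2KO replicate 4 was the 1 library of its group within the WT range, and the log2 fold change was 1.80 (SE 0.55, edgeR FDR 0.342). Epor, the erythropoietin receptor, had a log2 fold change of 0.41 (edgeR FDR 0.473), with levels of 12.2 ± 2.31 CPM in Fpr2KO. Foxo3, a forkhead factor of red cell maturation, had one of -0.18 (edgeR FDR 0.416), and the signal transducer Stat5b one of -0.14 (edgeR FDR 0.57).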

How the data were processed

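Per the labels' protocols, total RNA came from a Qiagen RNeasy Plus Universal kit and polyA libraries from an NEBNext Ultra II kit. The authors deposited 1 table of unscaled counts by Ensembl gene ID, with no normalisation. The submitters' processing notes name HTSeq 0.10.0, FastQC 0.10.1 and the builds mm10 and GRCm38. The annotation release, strand setting, aligner and treatment of reads with several hits were not given in the sources used here. GENCODE M21 named 52081 of 55414 IDs.

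Analysis used edgeR 4.0.16 under R 4.3.3: filterByExpr kept 14669 genes, TMM scaled the libraries, and Fpr2KO was compared with WT by glmQLFTest (robust, two-sided, no covariate) with Benjamini-Hochberg adjustment over those genes at an FDR of 0.05. The SE is the log2 fold change divided by the square root of F, and log2 CPM used a prior count of 2. Ratios used counts plus 0.5, except the ratio of Zfpm1 to Gata1, which used the counts alone. Single values were tested by exact permutation over 252 assignments of libraries, and correlations over 14400 arrangements within groups. Alternatives used DESeq2 1.42.0, limma 3.58.1, other scalings and filters, a replicate block and each library left out. The fit was also run on simulated counts with 1 dispersion for all genes (a biological coefficient of variation of 0.179). Klf1 (0.795), Tal1 (0.42), Gfi1b (0.216) and Gata1 (0.196) varied more than that, so the run does not bear on them. Library pairs within a group differed beyond sampling noise (chi-square per degree of freedom 11.2 to 60.9, 20 pairs), so none was a copy of another. This cannot tell separate animals from repeat preparations of the same RNA. Each library was treated as 1 replicate. Between genes, likeness of sequence was small: at most 3.2% of the 31-base stretches of a regulator occurred in another gene.

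The 10 regulators and the 20 gene lists were chosen with earlier results of these data known. Ahsp was not found, and Lin28b had 0 reads. Beside the regulators, the genes named are Fpr2, sex-linked checks, the 3 genes most like each regulator and up to 4 genes per list by p-value. Exceptions are stated or are defining markers.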

Additional observations from a re-analysis of the deposited data

How the results depend on the processing

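In edgeR with TMM scaling and its filter, 10 genes in all passed the threshold (0.0682% of 14669 tested) and 0 of the 10 regulators. With no filter these were 62 genes (0.217% of 28615) and 2 regulators, and in DESeq2 185 genes (1.09% of 16979) and 3 regulators. When 1 library was left out, between 8 and 51 genes (0.0536% to 0.342%) and between 0 and 2 regulators passed. With the replicate number as a block, 64 genes (0.436%) and 2 regulators (Zfpm1 and E2f2) passed. However, the numbers were not seen to pair the libraries: same-numbered libraries correlated at -0.10, 0.29, -0.10, 0.25 and -0.24, and 2 of 5 correlated best with their own number. The Zfpm1 to Gata1 ratio differed by 0 under the block, and by -0.14 to 0.17 with 1 library left out. RLE and upper quartile scaling, a stricter filter, limma voom and a fit without robust estimation called 9 or 10 genes and 0 regulators. Zfpm1 passed in 7 of 18 alternatives, E2f2 in 4, Gata1 in 1 and the other 7 regulators in none. All 10 estimates stayed above 0 except Nfe2 without Fpr2KO replicate 5 (-0.04, against up to 0.15 without another library) and Bcl11a without WT replicate 3 (-0.04, against up to 0.08). Upper quartile scaling moved the median of all genes most, to 0.033. The cause of these differences was not tested. Depth bounds Klf1 in WT replicate 3, with 0 reads, at 3 counts.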

Other observations

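Marker lists of other cell types in the F4/80 isolates, and of handling, held no gene past the edgeR FDR. Of all genes tested, 4.92% were lower and 4.88% higher in Fpr2KO at an unadjusted p under 0.05. Of 11 tested neutrophil markers all were lower in Fpr2KO, 8 at an unadjusted p under 0.05, with a median log2 fold change of -0.71 and summed levels of 374 to 692 CPM in Fpr2KO and 625 to 1080 CPM in WT. The 8 classical monocyte markers were likewise all lower, 6 at an unadjusted p under 0.05, with a median of -0.72 and sums of 673 to 926 CPM in Fpr2KO and 938 to 1460 CPM in WT. The 10 immediate early genes, which respond to handling of cells, were all lower, 9 at an unadjusted p under 0.05, with a median of -0.39 and sums of 10000 to 12600 CPM in Fpr2KO and 12300 to 18100 CPM in WT. Markers of splenic macrophages, most but not all of them of the red pulp, were split, 10 higher and 6 lower of 16. At an unadjusted p under 0.05, 1 was higher (Cd163, log2 fold change 0.46) and 1 lower (Siglec1, -0.63). The sums were 8370 to 10600 CPM in Fpr2KO and 8070 to 10700 CPM in WT. Of 10 T cell markers 9 were higher, none at an unadjusted p under 0.05, and of 8 tested stem and progenitor markers 7 were lower with a median of -0.26. Their part in the levels of the regulators was not tested.

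GATA hexamers stood in the promoters of 4 of 8 regulators with a window and of 16 of 24 effector genes (66.7%), against 33% of 27025 genes. Some regulators had several windows, and by window they were at 4 of 12, near the 29.8% of all windows. CCNCNCCC stood in 16 of the 24 effector genes as well (66.7%), against 51.9% of all genes. These shares are descriptions with no test.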
